A study of Mus musculus with 4 samples.

Results

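The genes described here encode the subunits of the proteasome. They were taken as all rows of the expression table whose symbol is Psma, Psmb, Psmc or Psmd followed by a number, which gave 40 of 22138 rows and 39 symbols, because Psmd14 is listed under 2 identifiers. Of these rows, 19 belong to the core particle (Psma, Psmb) and 21 to the regulatory particle (Psmc, Psmd). The members were chosen by name and not by their values. Earlier results of these data were known when the members, and the gene lists and motifs used below, were chosen.

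The proteasome degrades proteins that carry ubiquitin chains. Its core particle is a barrel of stacked rings, with outer alpha rings (Psma genes) that gate the entrance and inner beta rings (Psmb genes) that hold the proteolytic sites of Psmb5, Psmb6 and Psmb7. The regulatory particle caps the barrel. Its base, with a ring of ATPases (Psmc genes), unfolds the substrate, and its lid (most Psmd genes) removes the chain. In cells exposed to interferon the catalytic subunits are exchanged for Psmb8, Psmb9 and Psmb10, which form the immunoproteasome. Psmb11 is the counterpart of Psmb5 in the thymus, and Psma8 the counterpart of Psma7 in male germ cells. When proteasome activity falls short, the transcription factor encoded by Nfe2l1 raises many subunit genes through antioxidant response elements in their promoters.

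RNA was sequenced from TT2 cells, embryonic stem cells of a female mouse line derived from C57BL/6xCBA, kept without feeders in serum and LIF. Cells received control siRNA (n = 2) or siRNA against Hnrnpk (n = 2), which encodes the RNA- and DNA-binding protein hnRNP K, at 100 nM and again at 50 nM after 24 hours. RNA was taken about 72 hours after the second transfection. The study asks what hnRNP K contributes to gene silencing by SETDB1, and the comparison here is Hnrnpk siRNA against control siRNA in a single cell line, with knockdown rather than loss of the gene. The labels name the RNA both as rRNA-depleted and as poly(A)-selected. Nothing says that replicates came from separate cultures, so p-values measure only the spread between these libraries, which may be technical.

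Hnrnpk itself had 236 and 226 RPKM in control and 68.0 and 70.5 RPKM in Hnrnpk siRNA libraries (log2 change -1.73, adjusted p = 6.59e-08 by limma), in the direction of the labels. RPKM is a read count divided by transcript length and by library depth, and log2 changes are on the scale of log2(RPKM + 0.5), Hnrnpk siRNA minus control. A gene was called at a limma p, adjusted by Benjamini-Hochberg over the 12486 genes whose mean reached 0.5 RPKM, under 0.05. All 8 embryonic stem cell markers were expressed, with summed levels of 2893 to 3048 RPKM in control and 3834 to 4184 RPKM in Hnrnpk siRNA libraries. Nanog and Dppa5a were called higher and Sox2 and Tdgf1 lower, with a median log2 change of -0.063 over the 8, and Dppa5a alone went from 1298 to 2308 RPKM on average. The summed level of 7 fibroblast markers was 8.02 to 9.47 RPKM in control and 4.08 to 4.32 RPKM in Hnrnpk siRNA libraries, with Dcn, Col3a1, Postn and Lum under 0.1 RPKM throughout. Most of this sum came from Thy1 and Col1a1, the 2 markers tested, both called lower. Thy1 went from 6.05 to 2.25 RPKM and Col1a1 from 2.57 to 1.79 RPKM on average. Lum lay higher in both Hnrnpk siRNA libraries. In bulk RNA, fewer cells of a type and less RNA per cell cannot be told apart.

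Upstream sequences of 8 members are shown because these genes represent the groups that the results separate: the ATPases, the catalytic beta subunits with the immunoproteasome gene Psmb10, and the assembly chaperone Psmd9. They come from RefSeq windows of 250 bases before to 50 bases after the start site on GRCm38.p6. The longest stretch before the start site that lies outside every untranslated region of GENCODE M21 is printed, on the strand of the gene. Capitals mark matches, on either strand, to TGACNNNGC (core of the antioxidant response element), CCAAT (the CCAAT box) or GGGCGG (the GC box).
Psmc1, chr12:100109952-100110153, plus strand: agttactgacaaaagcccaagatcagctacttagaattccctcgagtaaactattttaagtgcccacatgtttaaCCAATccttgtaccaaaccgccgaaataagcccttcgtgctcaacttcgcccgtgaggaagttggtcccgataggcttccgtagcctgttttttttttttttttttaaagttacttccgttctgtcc
Psmc4, chr7:28050102-28050342, minus strand: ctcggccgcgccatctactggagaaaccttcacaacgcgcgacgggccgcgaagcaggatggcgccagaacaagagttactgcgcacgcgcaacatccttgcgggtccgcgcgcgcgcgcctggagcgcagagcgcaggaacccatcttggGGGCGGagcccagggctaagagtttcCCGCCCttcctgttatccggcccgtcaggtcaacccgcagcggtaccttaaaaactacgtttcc
Psmc5, chr11:106256080-106256153, plus strand: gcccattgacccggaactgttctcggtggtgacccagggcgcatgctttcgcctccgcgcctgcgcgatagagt
Psmc6, chr14:45329574-45329787, plus strand: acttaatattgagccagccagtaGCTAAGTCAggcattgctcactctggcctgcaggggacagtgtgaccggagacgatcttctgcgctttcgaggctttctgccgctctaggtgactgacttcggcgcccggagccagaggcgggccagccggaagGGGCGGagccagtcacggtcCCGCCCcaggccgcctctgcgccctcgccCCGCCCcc
Psmb5, chr14:54618023-54618245, minus strand: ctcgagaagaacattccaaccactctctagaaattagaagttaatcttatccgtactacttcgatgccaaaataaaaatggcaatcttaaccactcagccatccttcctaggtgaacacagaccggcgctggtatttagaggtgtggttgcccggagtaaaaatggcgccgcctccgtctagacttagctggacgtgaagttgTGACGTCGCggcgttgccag
Psmb6, chr11:70525107-70525356, plus strand: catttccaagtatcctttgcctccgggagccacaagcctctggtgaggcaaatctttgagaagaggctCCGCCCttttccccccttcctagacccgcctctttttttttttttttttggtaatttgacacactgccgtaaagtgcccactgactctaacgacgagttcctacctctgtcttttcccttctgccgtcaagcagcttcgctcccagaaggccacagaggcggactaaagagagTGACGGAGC
Psmb10, chr8:105938445-105938642, minus strand: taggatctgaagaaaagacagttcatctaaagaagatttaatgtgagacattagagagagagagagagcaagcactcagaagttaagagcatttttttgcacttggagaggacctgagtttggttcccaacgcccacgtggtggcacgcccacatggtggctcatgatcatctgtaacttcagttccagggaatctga
Psmd9, chr5:123227940-123228189, plus strand: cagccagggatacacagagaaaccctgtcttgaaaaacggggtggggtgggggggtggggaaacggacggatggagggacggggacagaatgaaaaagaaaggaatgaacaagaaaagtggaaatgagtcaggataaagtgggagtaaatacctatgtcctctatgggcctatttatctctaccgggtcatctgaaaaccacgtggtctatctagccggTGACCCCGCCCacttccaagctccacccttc
In Psmd9 the antioxidant response element core overlaps a GC box, so the capitals run together.

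The subunit genes differed widely in level, and as a whole they moved little. The summed level of the 40 rows was 5227 and 5502 RPKM in the control libraries and 5599 and 6032 RPKM in the Hnrnpk siRNA libraries, or 1.45% to 1.55% of all RPKM in each library. Of the 38 rows tested, 12 were called higher and 5 lower, 44.7% in all, whereas 67.2% of all genes tested were called, 32.2% higher and 35.0% lower. The median log2 change was 0.088 over the subunits and -0.015 over all genes tested. Only Psmb10 and Psma8, 2 of the 38 rows, changed by 0.5 or more on the log2 scale in either direction, as did 31.7% of all genes tested. Both Hnrnpk siRNA libraries lay outside the range of the control libraries in 73.7% of the subunit rows, against 84.7% of all genes tested. They lay above in 17 rows and below in 11, against 41.2% and 43.5% of all genes tested. Within this narrow range the groups of subunits differed in their counts: all 6 ATPases and 4 of 7 standard beta subunits were called higher, none of the 7 standard alpha subunits was called, the lid went both ways, and the alternative subunits Psmb9, Psmb10 and Psma8 were called lower.

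**Figure D1:**
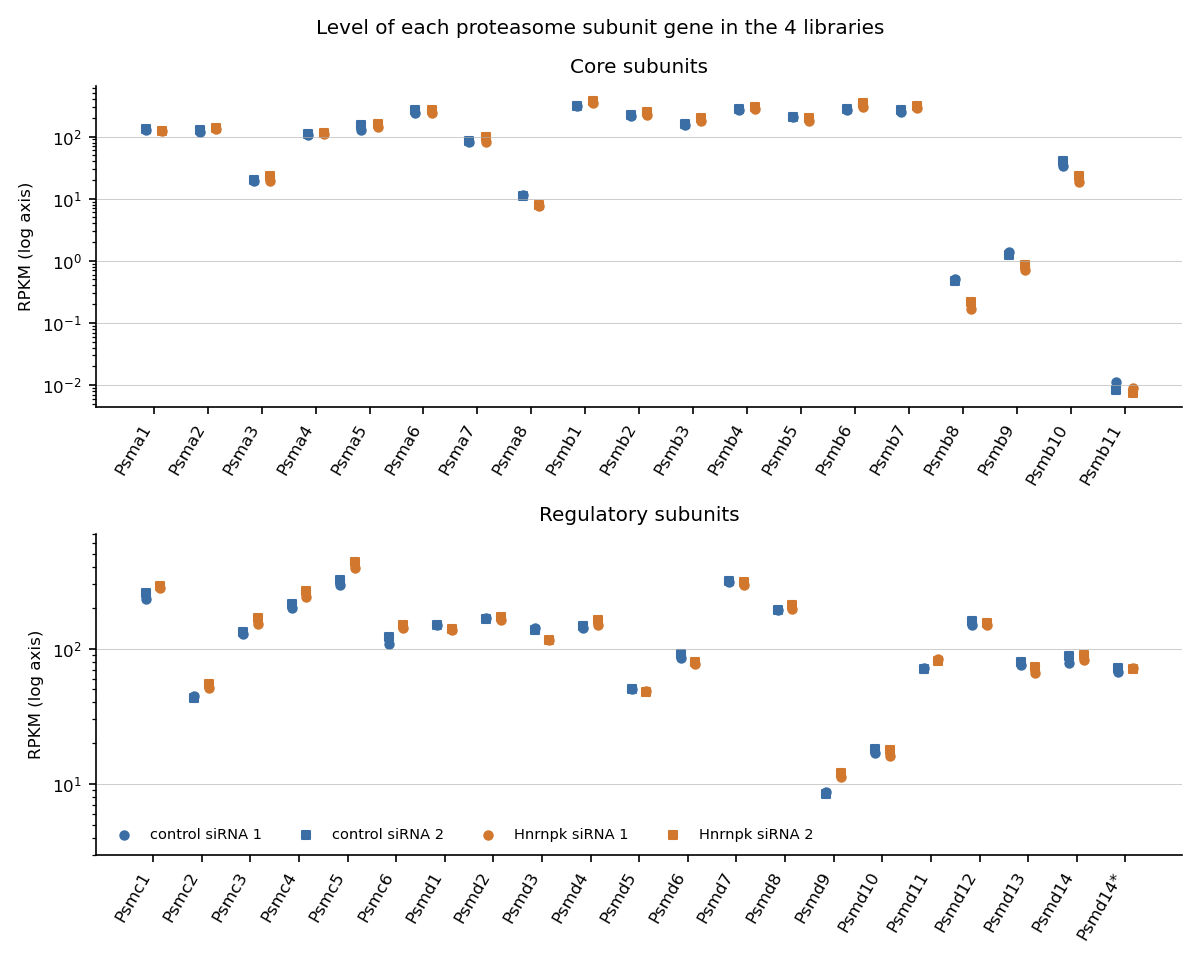
Level of each subunit gene in every library (RPKM, log axis; blue control siRNA, orange Hnrnpk siRNA, circles replicate 1, squares replicate 2; the asterisk marks the Psmd14 row ENSMUSG00000090649). The standard subunits and the assembly chaperones stand at 8.53 RPKM (Psmd9) or more in every library, while Psmb8, Psmb9 and Psmb11 lie at 1.39 RPKM or less.

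How many subunits were called in each direction depended on how the libraries were scaled, although no called subunit reversed its direction. Calls stood at 12 higher and 5 lower, but at 10 and 10 under quantile normalization, 7 and 9 with RPKM sums made equal, 9 and 7 with each library's trend on GC content removed and 12 and 4 with median-ratio scaling. Equal RPKM sums shift all genes alike, and the share of calls that were higher went from 47.9% to 38.9% over all genes tested and from 70.6% to 43.8% over the subunits. The subunits also differed between replicates of the same group. Of the 38 rows, 29 were higher in control replicate 2 than in control replicate 1, by a median of 0.069 on the log2 scale, and 35 were higher in Hnrnpk siRNA replicate 2 than in Hnrnpk siRNA replicate 1, by a median of 0.107. Over all genes tested the same medians were -0.023 and 0.020. Hnrnpk siRNA replicate 2 therefore carried the highest level of most standard subunits, and without it 7 rows were called higher and 5 lower. The part of this replicate difference in the results was not tested.

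**Figure D2:**
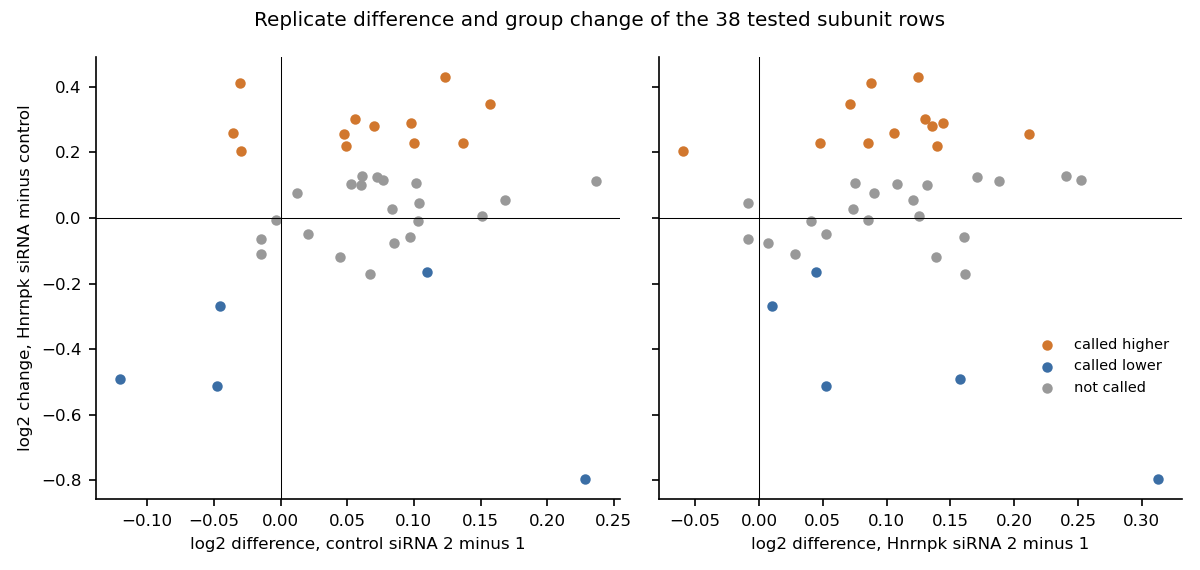
Group change of each tested subunit row (vertical axis, log2 change, Hnrnpk siRNA minus control) against the difference between replicates (horizontal axes, log2, control siRNA on the left, Hnrnpk siRNA on the right; orange called higher, blue called lower, grey not called). Most points lie to the right of 0 in both panels: 29 of 38 in control and 35 of 38 in Hnrnpk siRNA libraries.

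The alpha ring, which opens and closes the entrance to the core particle, was not called at any of its 7 standard genes by limma. None of the 7 had an unadjusted p under 0.05, whereas 67.2% of all genes tested were called. The median log2 change of the 7 was 0.107. Single values ran from -0.077 for Psma1 to 0.129 for Psma7, with SE of 0.0633 for Psma1 to 0.0922 for Psma5, the largest of the 7. Psma6, the most abundant, had 240 and 266 RPKM in control and 243 and 266 RPKM in Hnrnpk siRNA libraries. Psma3, the least abundant, had 19.1 and 20.1 RPKM in control and 19.5 and 23.3 RPKM in Hnrnpk siRNA libraries. The groups overlapped for 5 of the 7 genes, and only Psma2 (above) and Psma1 (below) separated, as did 84.7% of all genes tested. Their summed level had a mean of 859 RPKM (SD 54.4, n = 2) in control and 886 RPKM (SD 52.5, n = 2) in Hnrnpk siRNA libraries, a difference smaller than the spread within each group. Of the transcripts, 76.7% of Psma4 and 76.5% of Psma5 are shared at 95% identity or more with other genes, pseudogenes among them, so their levels are uncertain. Under some alternatives 4 members of the ring were called. Psma1 was lower under quantile normalization, with GC trends removed and with equal RPKM sums, and Psma7 was higher with GC trends removed. Leaving out Hnrnpk siRNA replicate 1 brought calls of Psma3 and Psma7, and leaving out control replicate 2 a call of Psma5, all higher.

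Of the 7 standard beta subunits 4 were called higher, against 32.2% of all genes tested. The median log2 change of the 7 was 0.22. Psmb6 and Psmb7 carry the caspase-like and trypsin-like proteolytic sites. Psmb6 had 266 and 275 RPKM in control and 301 and 348 RPKM in Hnrnpk siRNA libraries (log2 change 0.26, SE 0.0813, adjusted p = 0.0189). Psmb7 had 247 and 264 RPKM in control and 291 and 308 RPKM in Hnrnpk siRNA libraries (log2 change 0.23, SE 0.0706, adjusted p = 0.0166), with 35.1% of its transcript shared with other genes. In both genes every Hnrnpk siRNA library lay above every control library, as in 41.2% of all genes tested.

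Psmb5, which carries the chymotrypsin-like site, was not called: it had 203 and 209 RPKM in control and 181 and 199 RPKM in Hnrnpk siRNA libraries (log2 change -0.12, SE 0.0704, adjusted p = 0.158). Its libraries separated, with Hnrnpk siRNA below, and 88.4% of its transcript is shared with other genes, so its level is uncertain. The value was called lower under quantile normalization (-0.24, adjusted p = 0.00358), with length trends removed (-0.199, adjusted p = 0.012) and with equal RPKM sums (-0.208, adjusted p = 0.012), over a range of adjusted p of 0.00358 to 0.724 among all alternatives.

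The structural beta subunits were Psmb1, Psmb2, Psmb3 and Psmb4. Psmb3 had 151 and 159 RPKM in control and 180 and 197 RPKM in Hnrnpk siRNA libraries (log2 change 0.28, SE 0.0706, adjusted p = 0.00599), and 80.7% of its transcript is shared with pseudogenes. Psmb1 had 305 and 315 RPKM in control and 344 and 379 RPKM in Hnrnpk siRNA libraries (log2 change 0.22, SE 0.0734, adjusted p = 0.0234). Psmb2 and Psmb4 had log2 changes of 0.13 and 0.10 and were not called (adjusted p = 0.165 and 0.210). Calls at Psmb1, Psmb6 and Psmb7 depended on single libraries and on the processing. Without control replicate 1 the log2 change was 0.20 for Psmb1, 0.23 for Psmb6 and 0.18 for Psmb7, and without Hnrnpk siRNA replicate 2 it was 0.15, 0.15 and 0.19. None of these was called, so 1 of the 4 calls, Psmb3, was left in each case. All 3 calls were also lost with no filter and with equal RPKM sums (0.13, 0.17 and 0.14). Under quantile normalization those of Psmb1 (0.091) and Psmb7 (0.13) were lost, and with GC trends removed that of Psmb7 (0.097, adjusted p = 0.253). Without Hnrnpk siRNA replicate 1, 7 core genes were called higher, Psma3, Psma7 and Psmb2 being added.

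**Figure D3:**
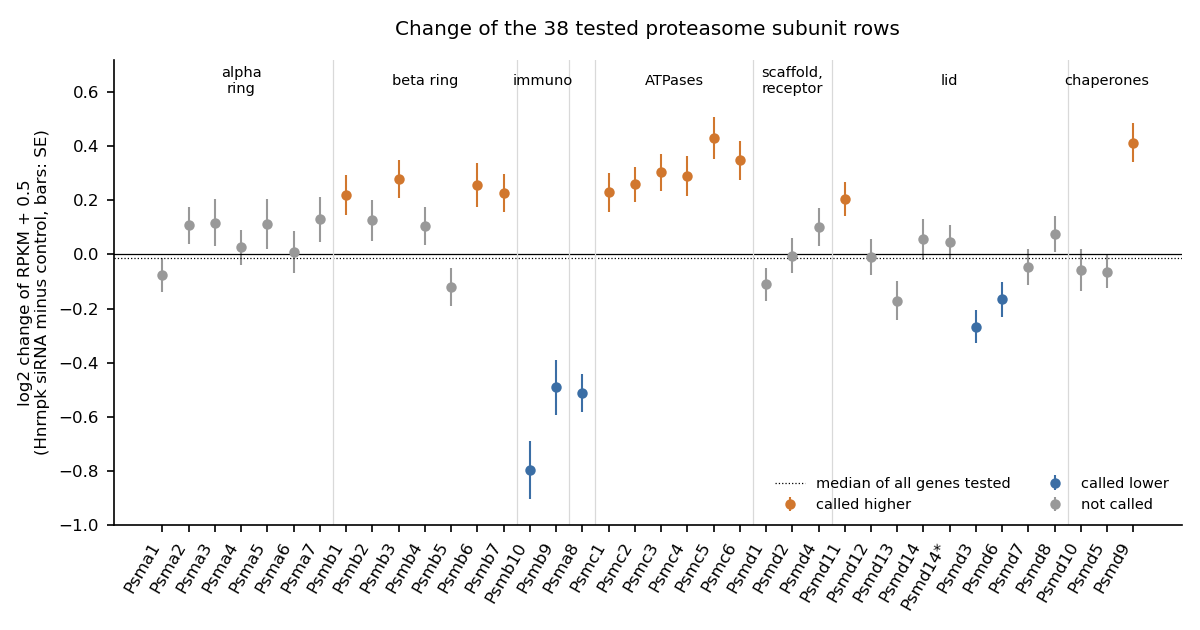
Log2 change of each tested subunit row (points, with SE as bars; orange called higher, blue called lower, grey not called; dotted line, median of all genes tested at -0.015; the asterisk marks the Psmd14 row ENSMUSG00000090649). The 6 ATPases lie between 0.23 and 0.43, and Psmb10, Psmb9 and Psma8 between -0.80 and -0.49.

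The immunoproteasome subunits lay lower after Hnrnpk siRNA. Both that were abundant enough to be tested were called lower, against 35.0% of all genes tested. Psmb10, the counterpart of Psmb7, had 34.1 and 40.1 RPKM in control and 18.9 and 23.6 RPKM in Hnrnpk siRNA libraries (log2 change -0.80, SE 0.108, adjusted p = 0.000137). This was the largest fall on this scale among the tested subunits, called under all 15 alternatives, with values from -0.95 to -0.64. Psmb9, the counterpart of Psmb6, had 1.39 and 1.24 RPKM in control and 0.720 and 0.860 RPKM in Hnrnpk siRNA libraries (log2 change -0.49, SE 0.102, adjusted p = 0.00197). Psmb8, the counterpart of Psmb5, had 0.514 and 0.471 RPKM in control and 0.166 and 0.215 RPKM in Hnrnpk siRNA libraries. Its mean fell short of the minimum for testing, and with no filter on low values its log2 change was -0.52 (adjusted p = 0.00233). As a ratio of mean RPKM, the fall of Psmb8 to 0.386 was larger than that of Psmb10 to 0.572. For all 3 genes both Hnrnpk siRNA libraries lay below both control libraries, as in 43.5% of all genes tested.

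These levels are small beside the standard subunits. Relative to Psmb7, Psmb10 stood at 13.8% and 15.2% of the RPKM in control and at 6.50% and 7.64% in Hnrnpk siRNA libraries. Relative to Psmb6, Psmb9 stood at 0.521% and 0.449% in control and at 0.240% and 0.247% in Hnrnpk siRNA libraries. Relative to Psmb5, Psmb8 stood at 0.254% and 0.225% in control and at 0.0919% and 0.108% in Hnrnpk siRNA libraries. The ratio of the group means was 0.488 for the Psmb10 pair, 0.502 for the Psmb9 pair and 0.417 for the Psmb8 pair. The smallest steps between low RPKM values give an estimate of depth, by which Psmb8 corresponded to 63.8 and 57.4 units per kilobase in control and 18.4 and 23.5 in Hnrnpk siRNA libraries. Only 27.1% to 29.2% of low values lay within 0.02 of a whole number of units, so the estimate is uncertain. Whether a unit is a read or a read pair is not known. The thymus subunit Psmb11 corresponded to 0.824 to 1.41 units per kilobase, was listed at 0.0114 RPKM or less and was not tested.

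**Figure D4:**
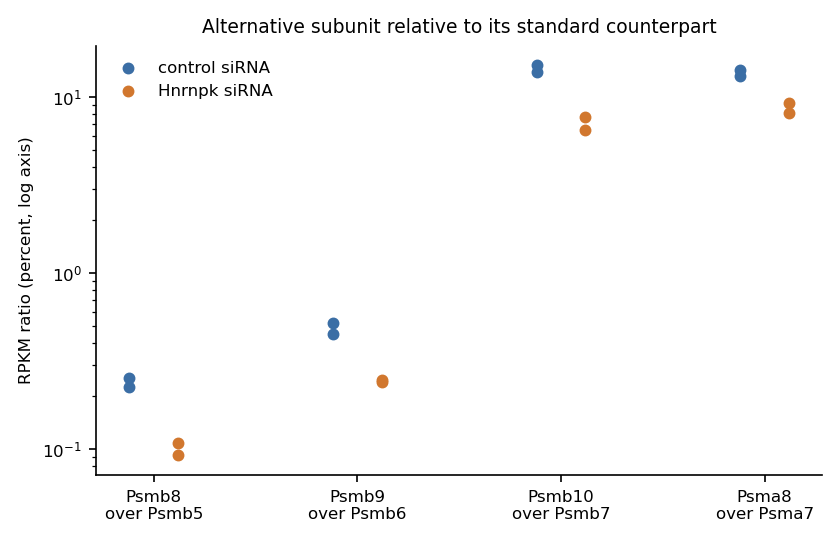
RPKM of each alternative subunit as a percent of its standard counterpart (log axis; 1 point per library, blue control siRNA, orange Hnrnpk siRNA). In all 4 pairs both Hnrnpk siRNA points lie below both control points, from 13.8% and 15.2% to 6.50% and 7.64% for Psmb10 over Psmb7.

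Psma8, the germ cell alpha subunit, had 11.5 and 11.1 RPKM in control and 7.64 and 7.94 RPKM in Hnrnpk siRNA libraries (log2 change -0.51, SE 0.0714, adjusted p = 0.000166). It was called lower under all 15 alternatives, from -0.60 to -0.49. Relative to Psma7 it stood at 14.3% and 13.2% in control and at 9.21% and 8.09% in Hnrnpk siRNA libraries. No stretch of its transcript was shared with another gene at the identity used.

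Genes that work beside the immunoproteasome did not move one way. Psme1 and Psme2 encode the activator cap that interferon raises with it. Psme1 fell from 44.7 ± 1.30 to 32.9 ± 1.25 RPKM and Psme2 from 19.4 ± 0.00184 to 14.6 ± 0.977 RPKM (mean ± SD of 2 libraries), with log2 changes of -0.43 and -0.40 (adjusted p = 0.000232 and 0.000760). Psme2 was named after its values were seen. Of 20 genes of peptide loading on MHC class I and of interferon signalling, 19 were in the table and 18 tested, of which 8 were called higher and 7 lower, against 32.2% and 35.0% of all genes tested. The median log2 change was 0.036 against -0.015 over all genes tested.

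The largest falls in that list were those of the heavy chain H2-K1, the interferon regulatory factor Irf1, the peptide-trimming protease Erap1 and the interferon regulatory factor Irf9. H2-K1 fell from 22.6 ± 1.43 to 8.86 ± 1.23 RPKM (mean ± SD of 2 libraries), and the log2 changes were -1.31, -0.84, -0.74 and -0.46 in the order named. The largest rises were those of the chaperone Calr (log2 change 1.04), the peptide transporter Tap1 (0.78) and the chaperone Canx (0.46). Tap1 starts next to Psmb9 on the other strand, and their annotated first exons overlap in GENCODE M21. The strandedness of the libraries was not given in the sources used here. Whether reads in the overlap were assigned by strand is therefore not known, and the levels of Tap1 and Psmb9 went in opposite directions. Immunoproteasome subunits are abundant in leukocytes, whose 6 markers had summed levels of 23.5 to 26.2 RPKM in control and 93.2 to 97.3 RPKM in Hnrnpk siRNA libraries. Of these markers Cd68, Laptm5 and Cd3e were called higher, while Itgam was below 0.5 RPKM in every library and the defining marker Ptprc was at 0.00212 RPKM or less. Their part in the immunoproteasome result was not tested.

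The ATPase ring of the base, which pulls substrates into the core particle, was called higher at all 6 of its genes. Over all genes tested, 32.2% were called higher. The log2 changes of the 6 ran from 0.23 to 0.43, with a median of 0.30. The summed level of the ring was 1005 and 1085 RPKM in control and 1262 and 1358 RPKM in Hnrnpk siRNA libraries, or 25.4% higher on average. Psmc5 had the largest log2 change of the ring, with 294 and 320 RPKM in control and 395 and 431 RPKM in Hnrnpk siRNA libraries (log2 change 0.43, SE 0.0770, adjusted p = 0.000805). Psmc6 had 108 and 121 RPKM in control and 142 and 149 RPKM in Hnrnpk siRNA libraries (log2 change 0.35, SE 0.0721, adjusted p = 0.00194). Psmc3 had 127 and 132 RPKM in control and 153 and 167 RPKM in Hnrnpk siRNA libraries (log2 change 0.30, SE 0.0688, adjusted p = 0.00335). For all 6 genes the Hnrnpk siRNA and control libraries did not overlap, as was so for 84.7% of all genes tested.

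The other ATPases had smaller changes. Psmc4 had 200 and 214 RPKM in control and 240 and 266 RPKM in Hnrnpk siRNA libraries (log2 change 0.29, adjusted p = 0.00655). Psmc2, the least abundant of the ring, had 44.5 and 43.4 RPKM in control and 50.8 and 54.7 RPKM in Hnrnpk siRNA libraries (log2 change 0.26, adjusted p = 0.00557). Psmc1 had 232 and 255 RPKM in control and 280 and 289 RPKM in Hnrnpk siRNA libraries (log2 change 0.23, adjusted p = 0.0174), and 82.0% of its transcript is shared with pseudogenes. All 6 kept a positive log2 change under every alternative, the lowest being 0.14, and Psmc3, Psmc4 and Psmc5 were called under all 15. The call was lost for Psmc1 without control replicate 1 (0.16, adjusted p = 0.143), with equal RPKM sums (0.14, adjusted p = 0.0782) and with no filter (adjusted p = 0.0576), and for Psmc1 and Psmc2 without Hnrnpk siRNA replicate 2 (0.21 each, adjusted p = 0.0628 and 0.05161). With GC trends removed it was lost for Psmc2 (0.14) and Psmc6 (0.17), at adjusted p of 0.116 and 0.0601.

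In the rest of the base no gene was called, whereas 67.2% of all genes tested were. The scaffold genes Psmd1 and Psmd2 and the ubiquitin receptor Psmd4 had log2 changes of -0.11, -0.0054 and 0.10, and none by limma had an unadjusted p under 0.05. Their summed level was 458 and 463 RPKM in control and 446 and 473 RPKM in Hnrnpk siRNA libraries. Psmd2 shares 98.2% of its transcript with a pseudogene, so its level is uncertain. Psmd1 was called lower under quantile normalization (-0.23), with GC trends removed (-0.15) and with equal RPKM sums (-0.20).

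The lid, whose subunit Psmd14 cleaves the ubiquitin chain from the substrate, went both ways over its 9 rows. Of these, 1 was called higher and 2 lower, against 32.2% and 35.0% of all genes tested. The median log2 change of the 9 rows was -0.010. Psmd3 had 141 and 137 RPKM in control and 115 and 116 RPKM in Hnrnpk siRNA libraries (log2 change -0.27, SE 0.0611, adjusted p = 0.00343), and was called lower under all 15 alternatives. Psmd6 had 85.0 and 91.7 RPKM in control and 77.4 and 79.9 RPKM in Hnrnpk siRNA libraries (log2 change -0.17, SE 0.0653, adjusted p = 0.0456). Psmd11, which braces the lid against the rest of the particle, had 72.0 and 70.6 RPKM in control and 84.0 and 80.5 RPKM in Hnrnpk siRNA libraries (log2 change 0.20, SE 0.0612, adjusted p = 0.0140). In these 3 genes the groups did not overlap, as was so for 84.7% of all genes tested.

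Calls at Psmd6 and Psmd11 depended on single libraries and on the processing. That of Psmd6 was lost with no filter, median-ratio scaling and no mean-variance trend (limma adjusted p = 0.0671, 0.0664 and 0.0818). Psmd6 was not called without control replicate 2 (-0.11), without Hnrnpk siRNA replicate 1 (-0.14) or without Hnrnpk siRNA replicate 2 (-0.19). Psmd11 was not called without control replicate 2 (0.19) or without Hnrnpk siRNA replicate 1 (0.18). Its call was also lost with GC trends removed (0.062) and with equal RPKM sums (0.12). Of the Psmd11 transcript, 52.7% is shared with other genes. Psmd13 had 76.2 and 79.8 RPKM in control and 65.5 and 73.3 RPKM in Hnrnpk siRNA libraries and was just short of a call (log2 change -0.17, adjusted p = 0.0583). It was called lower under 5 of 15 alternatives: quantile normalization, length trends removed, the replicate block, without Hnrnpk siRNA replicate 2 and equal RPKM sums. Its values over all 15 ran from -0.26 to -0.089. Psmd7, Psmd8 and Psmd12 had log2 changes of -0.047, 0.075 and -0.010. The 2 rows named Psmd14, ENSMUSG00000026914 and ENSMUSG00000090649, had means of 82.6 and 69.1 RPKM in control and log2 changes of 0.055 and 0.045. The second identifier was not found in GENCODE M21, and how the authors divided reads between the rows was not given in the sources used here.

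Of the 3 Psmd genes that act as chaperones in the assembly of the base, 1 was called, against 67.2% of all genes tested. All 3 are absent from the finished particle, and the gene called was Psmd9. It had 8.73 and 8.53 RPKM in control and 11.29 and 12.03 RPKM in Hnrnpk siRNA libraries (log2 change 0.41, SE 0.0721, adjusted p = 0.000696), and was called under all 15 alternatives. The ratio of mean RPKM was 1.35 for both Psmd9 and Psmc5. Psmd5 had 50.5 and 50.0 RPKM in control and 48.2 and 47.9 RPKM in Hnrnpk siRNA libraries (log2 change -0.063, adjusted p = 0.368). Psmd10 had 17.1 and 18.3 RPKM in control and 16.02 and 17.97 RPKM in Hnrnpk siRNA libraries (log2 change -0.057, adjusted p = 0.534).

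A list of 37 genes that assemble, regulate or feed the proteasome was read from the same fit. Of these, 34 were in the table and 33 were tested, with 13 called higher, 8 lower and a median log2 change of 0.033, and 21 of 33 called against 67.2% of all genes tested. The largest rises were those of the proteasome activator Zfand5, from 13.8 ± 0.477 to 21.9 ± 0.576 RPKM, the polyubiquitin gene Ubb, from 401 ± 2.33 to 584 ± 41.4 RPKM, the deglycosylase Ngly1, from 1.84 ± 0.0401 to 2.83 ± 0.0520 RPKM, and the small lid subunit Shfm1 (now Sem1), from 172 ± 12.3 to 237 ± 0.271 RPKM (means ± SD of 2 libraries). Their log2 changes were 0.65, 0.54, 0.51 and 0.46, and the highest adjusted p of the 4 was 0.000507. Among the largest falls were those of the particle's scaffold AI314180 (now Ecpas), from 10.8 ± 0.448 to 5.88 ± 0.324 RPKM and the deubiquitinase Uchl5, from 69.5 ± 3.38 to 45.3 ± 0.292 RPKM (means ± SD of 2 libraries), followed by Psme1. Their log2 changes were -0.83 and -0.61, at adjusted p of 2.51e-05 or less.

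The regulators of subunit transcription were named after their values were seen. Nfe2l1 rose from 55.1 ± 4.50 to 71.6 ± 1.05 RPKM (mean ± SD of 2 libraries; log2 change 0.38, adjusted p = 0.00105). Ngly1, listed above, encodes an enzyme that acts on the Nfe2l1 protein. Nfe2l2, the related factor of the oxidative stress response, had a log2 change of 0.40 (adjusted p = 0.00229), while Nfe2l3 had 0.875 and 0.673 RPKM in control and 0.196 and 0.140 RPKM in Hnrnpk siRNA libraries, lower in both, with a mean too low to be tested. Ddi2, whose protease processes the Nfe2l1 protein, had a log2 change of 0.05 and was not called (adjusted p = 0.521). These are transcript levels and say nothing of the processing of the proteins.

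The promoter windows were then searched in full, 300 bases each. RefSeq windows matched 32 of the 39 symbols, 34 windows in all, with none for Psma8, Psmb1, Psmb2, Psmb7, Psmc3, Psmd3 or Psmd7. The TGACNNNGC core was found in 5 windows (14.7%), those of Psmb5, Psmb6, Psmc6, Psmd9 and Psmd12, against 12.4% of all 32851 windows. Of these 5 genes Psmb6, Psmc6 and Psmd9 were called higher and none lower. The 26 tested rows whose windows lack it held 6 called higher and 3 lower. Over all genes tested, 32.2% were called higher and 35.0% lower. The difference between rows with and without the core was not tested. Of the 5 ATPase genes with a window only Psmc6 had the core.

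The shares of windows with a GC box or a CCAAT box differed between the 2 particles, with no test of the difference. GGGCGG was found in 13 of 18 windows of regulatory subunits (72.2%) and in 6 of 16 windows of core subunits (37.5%), against 35.7% of all windows. CCAAT was found in 5 of 18 regulatory windows (27.8%) and 8 of 16 core windows (50.0%), against 37.4% of all windows. The median log2 change was 0.050 over the 20 tested rows with a GC box and 0.104 over the 11 without one, and 0.101 over the 13 with a CCAAT box and 0.051 over the 18 without one. Called genes were found on both sides of each split. A match describes letters only and does not show that a factor binds there.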

How the data were processed

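The authors deposited 1 table of RPKM values per gene, with a column for each library. BWA, SAMtools and the build mm9 are named per the submitters' processing notes. The counting tool, the annotation and the handling of multiply matching reads were not given in the sources used here. Identifiers are used as listed, and coordinates are printed for RefSeq promoters on GRCm38.p6 only. Columns were matched to samples by the labels.

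Values were analysed as log2(RPKM + 0.5), which understates changes of low genes, for the 12486 of 22138 genes whose mean reached 0.5 RPKM. The fit used limma 3.58.1 (R 4.3.3), a mean-variance trend, all 4 libraries and no covariate, with two-sided p-values adjusted by Benjamini-Hochberg over all genes tested and called under 0.05. An exact permutation test of 1 gene could not reach that threshold with groups of 2, so calls rest on variance pooled across genes. On simulated data of 12486 genes with 200 changed, the fit called 4% of log2 changes of 0.25, 84% of 0.5 and 100% of 1, with 7 of 151 calls among unchanged genes. In the data 67.2% of genes were called, so the adjusted threshold was looser than in the simulation. These rates therefore do not describe the calls in the data.

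Steps between low values gave relative depths of 1 and 0.982 in control and 0.891 and 0.882 in Hnrnpk siRNA libraries. Only 27.1% to 29.2% of low values lay within 0.02 of a whole number, so no counts were recovered and no count model was used. Sequence shared with other genes of GENCODE M21 was searched for in 39 member rows with BLAST 2.17.0 (95% identity or more, 100 bases or more). Of these rows, 23 shared nothing and 7 shared over 50% of the transcript. Psmb9 was matched by symbol and the second Psmd14 row was not matched.

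The members, the gene lists and the motifs were chosen with earlier results of these data known. All members may be named. Values per library were set out for the catalytic and alternative subunits and for up to 3 called rises and falls per family, and for partner and antigen-processing lists the 4 largest called rises and falls are named. Paaf1, Rps27a and Nlrc5 were among the listed genes not analysed here, and some genes that the rule names are not reported here.

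Alternatives were another added value or filter, median-ratio or quantile scaling, no variance trend, removal of each library's trend on GC content or transcript length, a replicate block, leaving out each library, and equal RPKM sums.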

Additional observations from a re-analysis of the deposited data

How the results depend on the processing

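Of 15 alternatives, 1 (equal RPKM sums) was chosen after seeing the data. No called subunit reversed its direction under any of the 15, and of the 17 calls between 11 and 17 were kept. Core subunits called higher numbered 4, but 1 with no filter, 2 under quantile normalization, 1 with equal RPKM sums and 1 to 7 when 1 library was left out. Core subunits called lower numbered 3, but 5 under quantile normalization and 5 with equal RPKM sums. Regulatory subunits called higher numbered 8, but 5 with GC trends removed. Regulatory subunits called lower numbered 2, but 1 with no filter, 1 with median-ratio scaling, 1 without the mean-variance trend, 5 under quantile normalization, 4 with equal RPKM sums and 1 to 2 when 1 library was left out. Partner genes called lower numbered 8, but 14 with equal RPKM sums, and antigen-processing genes called lower numbered 7, but 4 to 6 when 1 library was left out. The cause was not tested.

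The sign of the log2 change moved for 12 rows that were not called. Under quantile normalization it was -0.01927 for Psmd4, -0.06927 for Psma6, -0.03715 for Psmd8, -0.0731 for Psma4 and -0.002989 for Psma5. With median-ratio scaling it was 0.01143 for Psmd2 and 0.006638 for Psmd12. With GC trends removed it was 0.004063 for Psmd2, -0.04349 for Psma2, -0.03719 for Psma6, -0.03608 for Psmd14 (ENSMUSG00000026914), -0.0374 for Psma4 and -0.01368 for Psma3. With length trends removed it was -0.04513 for Psma6 and -0.009274 for Psma4. With equal RPKM sums it was -0.08091 for Psma6, -0.03255 for Psmd14 (ENSMUSG00000026914), -0.01341 for Psmd8, -0.06169 for Psma4 and -0.04244 for Psmd14 (ENSMUSG00000090649). With 1 library left out in turn it ranged from -0.04849 to 0.03778 for Psmd2, -0.06198 to 0.04169 for Psmd12, -0.06798 to 0.0828 for Psma6, -0.02866 to 0.1395 for Psmd14 (ENSMUSG00000026914), -0.1374 to 0.02377 for Psmd10, -0.01488 to 0.06766 for Psma4, -0.009189 to 0.2434 for Psma3, -0.006419 to 0.2299 for Psma5 and -0.006488 to 0.09732 for Psmd14 (ENSMUSG00000090649).

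With the replicate number as a block (replicate block), 12 subunits were called higher and 6 lower, against 12 and 5 without it, and 4162 genes were called higher and 4460 lower. All 17 calls were kept, Psmd13 being added (adjusted p = 0.0223). The labels give only a shared number, and no source pairs the libraries. The difference of replicate 2 from replicate 1 in control correlated with that in Hnrnpk siRNA libraries at 0.027 across all genes tested and at 0.354 across the 38 subunit rows, which are not independent. Depth in reads could not be settled, so counting error was not estimated.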
